A study of Mus musculus with 2 samples.

Results

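Gcg, Pyy, Cck, Nts and Sct are 5 genes that encode peptide hormones of the gut, chosen by name, and all 5 had a row in both deposited tables. They stand among 16943 nuclear genes listed in at least 1 of the 2 tables. The cells came from organoids of mouse jejunum and ileum, were homozygous for the Neurog3-RFP reporter and were sorted for red fluorescence after 48 h with ISX-9, a small molecule known to induce neuronal differentiation, or after 48 h with its solvent DMSO. Each treatment is 1 plate of 384 wells with 1 sorted cell intended per well, the reporter and the culture are common to both plates, and no dose of ISX-9 or number of animals is given in the labels. The sort limits the data to cells that express Neurog3, the factor that starts the enteroendocrine lineage, or that still hold the fluorescent protein after it. Every difference between the plates is therefore one between 2 libraries, with no replicate check and no p-value.

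Enteroendocrine cells are rare epithelial cells that release peptide hormones or serotonin into the gut wall and blood. They arise from Neurog3-expressing progenitors and turn on hormone genes as they mature. The classical L, I, N and S cells are marked by Gcg and Pyy, by Cck, by Nts and by Sct, and single cells are known to hold transcripts of several of these at once. Gcg encodes proglucagon, which in the gut yields GLP-1, a peptide that promotes insulin release, and GLP-2, which acts on mucosal growth. Pyy encodes peptide YY, which slows gut transit and reduces food intake. Cck encodes cholecystokinin, which contracts the gallbladder and stimulates pancreatic enzyme secretion. Nts encodes neurotensin, a peptide released after fat intake. Sct encodes secretin, which stimulates bicarbonate secretion from the pancreas.

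The 250 bases upstream of the start of 4 of the genes are shown because these genes were read together in the wells described below. The sequences are from RefSeq, build GRCm38.p6, 5′ to 3′ on the minus strand for all 4, and capitals mark each E-box, CANNTG, the letters that basic helix-loop-helix factors such as Neurog3 and Neurod1 bind. The windows are chr2:62483654-62483903 for Gcg, chr9:121495695-121495944 for Cck, chr10:102490419-102490668 for Nts and chr7:141279134-141279383 for Sct.
Gcg: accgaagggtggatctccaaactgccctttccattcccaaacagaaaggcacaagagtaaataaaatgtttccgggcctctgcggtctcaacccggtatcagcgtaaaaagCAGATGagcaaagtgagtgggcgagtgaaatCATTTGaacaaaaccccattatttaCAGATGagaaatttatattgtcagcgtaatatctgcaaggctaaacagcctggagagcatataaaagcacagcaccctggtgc
Cck: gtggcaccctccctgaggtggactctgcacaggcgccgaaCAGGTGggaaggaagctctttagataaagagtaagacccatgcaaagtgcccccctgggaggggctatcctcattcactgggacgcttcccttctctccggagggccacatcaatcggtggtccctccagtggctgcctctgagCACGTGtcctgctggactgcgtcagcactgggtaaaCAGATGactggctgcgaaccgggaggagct
Nts: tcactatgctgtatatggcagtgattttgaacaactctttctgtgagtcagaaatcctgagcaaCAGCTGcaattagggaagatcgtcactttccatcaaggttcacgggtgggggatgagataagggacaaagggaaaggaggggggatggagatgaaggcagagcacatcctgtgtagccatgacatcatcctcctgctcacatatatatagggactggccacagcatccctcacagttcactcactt
Sct: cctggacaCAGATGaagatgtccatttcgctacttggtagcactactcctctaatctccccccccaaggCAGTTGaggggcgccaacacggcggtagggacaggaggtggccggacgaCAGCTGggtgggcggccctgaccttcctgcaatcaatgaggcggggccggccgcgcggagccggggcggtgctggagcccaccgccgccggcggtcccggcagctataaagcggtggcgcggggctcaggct
The windows of Gcg, Cck and Sct held 3 E-boxes each and that of Nts held 1, while both windows listed for Pyy on chromosome 11 held 1. An E-box is common, since 66.2% of 32851 windows of this length held at least 1. TGACG on either strand, a part of the cyclic AMP response element, was found 1 time in the Cck window and 1 time in the Nts window, and 17.8% of all windows held it. The homeodomain core TAATTA, on either strand, was in no window of the 5 genes and in 4.84% of all windows, and no E-box overlapped either of these motifs. These matches are letters in a window and say nothing of binding in these cells.

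Levels are given as CPM, reads per 1000000 reads of nuclear genes, after wells with fewer than 2000 such reads or fewer than 500 genes were left out. The ISX-9 plate kept 290 of its 384 wells, with a median of 22509.5 reads per well, and the DMSO plate kept 300 of 384, with a median of 26340. Neurog3 stood at 2990 CPM in the ISX-9 plate and 679 CPM in the DMSO plate. Amplified copies of a molecule were counted more than once, so each 95% Poisson interval covers counting error alone. The same 384 well numbers occur in both tables, 225 of them kept in both plates. A plate level cannot tell fewer cells of a type from less RNA per cell.

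Summed over the kept wells, Nts and Sct were higher in the ISX-9 plate than in the DMSO plate, and Gcg, Pyy and Cck were lower. Gcg stood at 875 CPM in the ISX-9 plate (interval 858 to 892) and 2212 CPM in the DMSO plate (2188 to 2236), a log2 ratio of (CPM + 5) of -1.33. Pyy stood at 35.9 CPM (32.6 to 39.5) in ISX-9 and 205.4 CPM (198.2 to 212.9) in DMSO, a log2 ratio of -2.36. Both genes were thus at least 2-fold lower, as were 1.19% of the 9106 genes that averaged 10 CPM or more over the plates. Cck stood at 1483 CPM (1461 to 1505) in ISX-9 and 2381 CPM (2356 to 2406) in DMSO, a log2 ratio of -0.68. Nts stood at 278.3 CPM (268.8 to 287.9) in ISX-9 and 20.5 CPM (18.3 to 23.0) in DMSO, a log2 ratio of 3.47. It was the only one of the 5 at least 2-fold higher by this measure, as were 4.51% of the 9106 genes. Sct stood at 109.1 CPM (103.3 to 115.3) in ISX-9 and 53.5 CPM (49.9 to 57.4) in DMSO, a log2 ratio of 0.96, and the median log2 ratio of all 9106 genes was 0.15.

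These sums rested on few wells, most of all for Gcg, Pyy and Nts. For Gcg the 3 wells with most reads held 96.4% of the ISX-9 reads and 67.1% of the DMSO reads. For Pyy a single DMSO well, number 299, held 76.4% of the plate's reads at 61355 CPM, and the log2 ratio was -0.92 once both plates lost their top Pyy well. For Nts the 3 highest wells held 86.4% of the ISX-9 reads and 99.7% of the DMSO reads. For Cck they held 44.5% and 48.0%, and for Sct 22.9% and 34.3%. The direction for Cck changed with the way wells were combined. As a mean over wells of the CPM of each well it was 2168 CPM in ISX-9 and 2060 CPM in DMSO, a log2 ratio of 0.07, and after each well was thinned to 2000 reads it was 0.08. The log2 ratios of Gcg, Pyy, Nts and Sct kept their sign in all 9 alternatives, with ranges of -3.04 to -0.61, -2.52 to -0.33, 0.34 to 4.65 and 0.81 to 1.69.

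**Figure D1:**
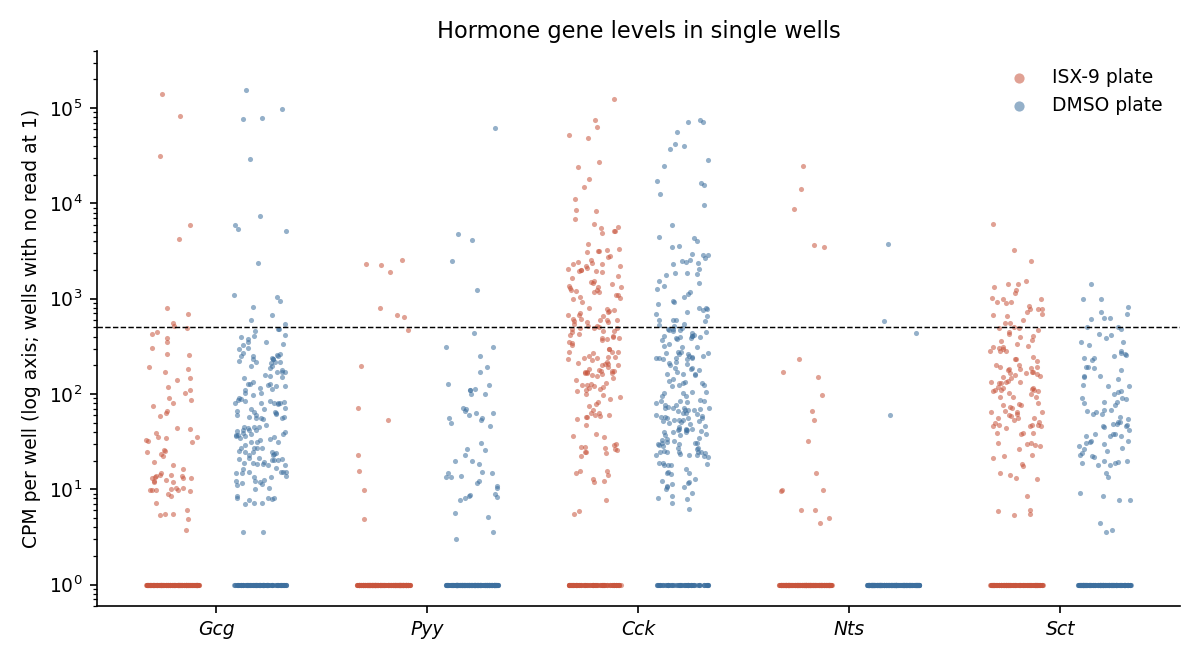
Each point is 1 kept well (290 in the ISX-9 plate, 300 in the DMSO plate), with the CPM of the gene in that well on a log axis, wells with no read drawn at 1 and a dashed line at 500 CPM. A few wells lie above 10000 CPM for Gcg, Cck and, by plate, Nts in ISX-9 or Pyy in DMSO, whereas no well does for Sct.

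**Figure D2:**
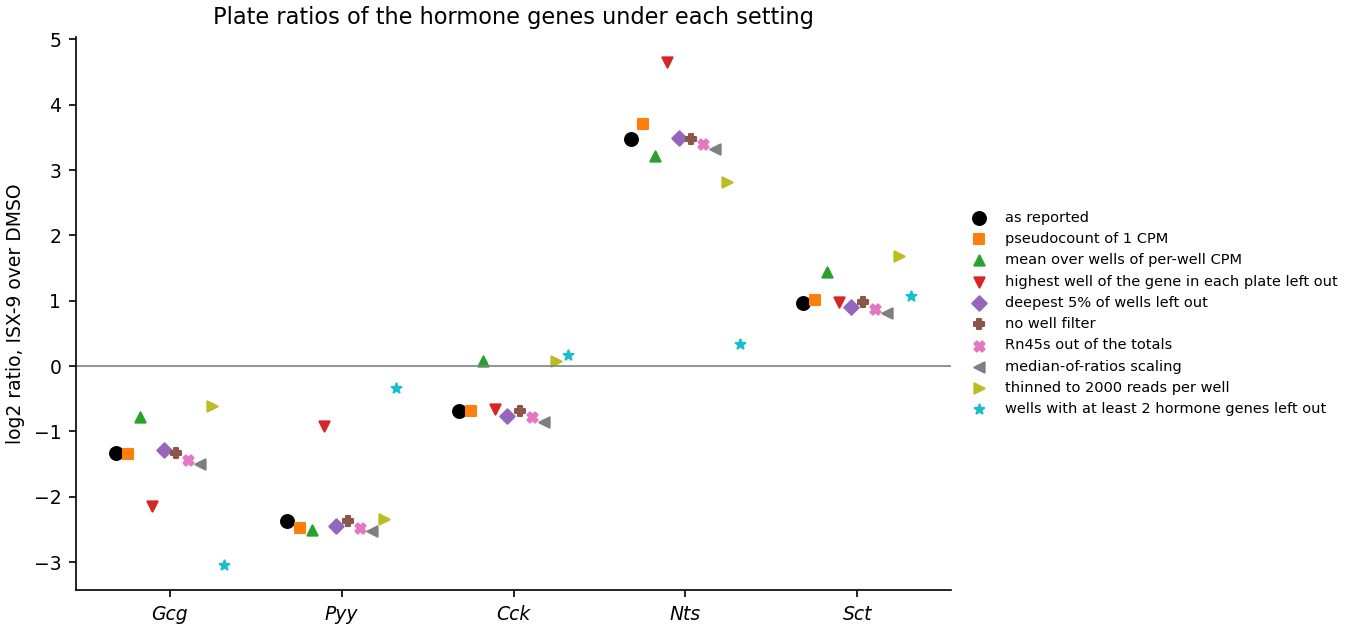
Log2 ratio of each gene, ISX-9 over DMSO, as reported (black) and under the 9 alternatives named in the legend, 1 symbol each. Cck lies on both sides of 0, from -0.85 to 0.16, and the other 4 genes on 1 side.

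Counted by wells, Cck was the hormone gene present in most wells at 500 CPM or more, the level used here to call a well high. It reached this level in 83 ISX-9 wells, 28.6% (exact Clopper-Pearson interval 23.5 to 34.2), and in 58 DMSO wells, 19.3% (15.0 to 24.3). Its levels in these wells ran from 510.5 to 125209 CPM with a median of 1711 CPM in ISX-9, and from 517.2 to 74609 CPM with a median of 2175 CPM in DMSO. The summed level and the share of high wells thus pointed in opposite directions between the plates, and the 2 intervals of the share overlap.

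Sct reached 500 CPM in 27 ISX-9 wells, 9.31% (6.23 to 13.3), and in 10 DMSO wells, 3.33% (1.61 to 6.04). Its high wells had modest levels, with a median of 920.1 CPM and a maximum of 6007 CPM in ISX-9, and a median of 703.2 CPM and a maximum of 1413 CPM in DMSO. These 2 intervals of the Sct share did not overlap, but how many of all genes differ in this way was not counted. Each interval covers the sampling of wells from its plate and not replicates of a treatment. After thinning to 2000 reads a Sct read was left in 44 ISX-9 wells, 15.2% (11.2 to 19.8), and in 23 DMSO wells, 7.67% (4.92 to 11.3), and these intervals just overlap.

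Gcg reached 500 CPM in 9 ISX-9 wells, 3.10% (1.43 to 5.81), and in 17 DMSO wells, 5.67% (3.34 to 8.92). The 5 highest ISX-9 wells had 139500, 83602, 31194, 5873 and 4266 CPM, and the 5 highest DMSO wells had 153908, 97534, 77980, 77041 and 29079 CPM. The highest values were close, while the lower ones of these wells had less in ISX-9, and in the highest well of each plate Gcg alone took 13.95% of the nuclear reads in ISX-9 and 15.4% in DMSO.

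Pyy reached 500 CPM in 7 ISX-9 wells, 2.41% (0.976 to 4.91), and in 5 DMSO wells, 1.67% (0.543 to 3.85). The highest ISX-9 wells had 2549, 2332, 2260, 1914 and 800.1 CPM, whereas the 5 DMSO wells had 61355, 4800, 4127, 2505 and 1221 CPM. Apart from well 299 of the DMSO plate, no well of either plate exceeded 5000 CPM of Pyy.

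Nts reached 500 CPM in 5 ISX-9 wells, 1.72% (0.562 to 3.98), and in 2 DMSO wells, 0.667% (0.0808 to 2.39). The 5 ISX-9 wells had 24411, 14292, 8780, 3691 and 3464 CPM, from 1097, 841, 899, 406 and 19 reads, and the 2 DMSO wells had 3766 and 584.7 CPM, from 265 and 35 reads. In the DMSO plate the gene had 1 read or more in only 4 wells. The intervals of the share of wells overlap widely, so a difference in the share of Nts-high wells was not detectable with this number of wells.

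The threshold lies close to the worth of 1 read in the shallowest wells, where a single read stands for 498.3 CPM in the ISX-9 plate and 435.7 CPM in the DMSO plate. Of the wells at 500 CPM or more, fewer than 5 reads lay behind the call in 3 of 9 for Gcg, 8 of 83 for Cck and 4 of 27 for Sct in ISX-9, and in 3 of 17 for Gcg, 5 of 58 for Cck and 1 of 10 for Sct in DMSO. No Pyy or Nts call rested on fewer than 5 reads in either plate. Just inside and just outside the threshold lay 516.0 and 497.5 CPM for Gcg, 649.6 and 467.2 for Pyy, 510.5 and 498.3 for Cck, 3464 and 232.1 for Nts and 500 and 498.3 for Sct in the ISX-9 plate. In the DMSO plate they were 542.5 and 485.1 CPM for Gcg, 1221 and 435.7 for Pyy, 517.2 and 494.9 for Cck, 584.7 and 431.4 for Nts and 505.4 and 498.8 for Sct.

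Wells with at least 2 of the 5 genes at 500 CPM or more, here called multihormonal, were found in both plates. There were 21 of 290 in ISX-9, 7.24% (4.54 to 10.9), and 16 of 300 in DMSO, 5.33% (3.08 to 8.52), and these intervals overlap. At least 3 genes reached the level in 8 ISX-9 wells and in 5 DMSO wells, and all 5 genes did so in 2 ISX-9 wells and in 1 DMSO well. With at least 5 reads required of each gene the multihormonal wells numbered 16 in ISX-9 and 15 in DMSO, and the 8 and 5 wells with 3 or more genes kept that number. The remainder was 76 wells with 1 gene and 193 with none in ISX-9, and 51 and 233 in DMSO. Because doublets, wells that took 2 cells, were not called, the depth of these wells is given beside them. Their median was 19766 nuclear reads in ISX-9, against 22827 in the other wells, and 59870.5 in DMSO, against 25329.5 in the other wells, and 0 of the 21 and 1 of the 16 lay among the deepest 5% of the plate. For wells with 3 or more genes the median was 35480 reads in ISX-9, against 22173 in all wells with fewer. In DMSO it was 59885, against 26151. The part of doublets in the count of either plate was not tested.

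Wells with all 5 genes held large amounts of Gcg and Cck and smaller amounts of the others. In well 223 of the ISX-9 plate, with 44939 nuclear reads, Gcg stood at 139500 CPM, Cck at 63063, Nts at 24411, Pyy at 1914 and Sct at 1313 CPM, together 23.0% of the reads of that well. In well 147 of the ISX-9 plate, with 109990 reads, the same order held with 31194, 14774, 3691, 800.1 and 500 CPM, the last from 55 reads. In well 378 of the DMSO plate, with 59856 reads, Gcg stood at 97534 CPM, Cck at 70987, Pyy at 4127, Sct at 718.4 and Nts at 584.7 CPM. Each of these values rested on at least 35 reads. The reads of Gcg over those of Cck were 2.21 and 2.11 in the ISX-9 wells and 1.37 in the DMSO well.

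The wells with 3 or 4 genes differed in content. Gcg and Cck were joined in well 204 of the DMSO plate, with 77041 CPM of Gcg, 71925 of Cck, 3766 of Nts and 980.6 of Sct, and in well 133 of that plate, with 29079 of Gcg, 28338 of Cck, 1221 of Pyy and 1413 of Sct. Cck came with little Gcg in others. Well 372 of the ISX-9 plate held 52357 CPM of Cck, 14292 of Nts, 2549 of Pyy and 1020 of Sct but 424.8 of Gcg, from 25 reads. Well 112 of the DMSO plate held 42332 CPM of Cck, 4800 of Pyy and 1000 of Sct but a single read of Gcg. Well 249 of the ISX-9 plate, with only 3098 nuclear reads, held 83602 CPM of Gcg, 74241 of Cck and 2260 of Pyy beside 7101 of Muc2, the main intestinal mucin. Well 316 of the ISX-9 plate came with 8780 CPM of Nts, 1416 of Sct and 1162 of Cck beside 2715 CPM of Tph1, the enzyme gene of serotonin synthesis, and 1 read of Gcg.

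Most wells high in a rarer hormone gene were also high in a commoner one. Of the Gcg-high wells, 7 of 9 in ISX-9 (77.8%) and 11 of 17 in DMSO (64.7%) were also Cck-high, while those wells made up 8.43% and 18.97% of the Cck-high wells. Of the Pyy-high wells, 5 of 7 in ISX-9 and 5 of 5 in DMSO were Cck-high, and of the Nts-high wells 4 of 5 and 2 of 2. All 7 Nts-high wells of both plates were also Sct-high, 5 of 5 in ISX-9 and 2 of 2 in DMSO. With at least 5 reads required of each gene they were 4 of 5 and 2 of 2, since well 380 of ISX-9 had 4 Sct reads. Sct and Cck shared 16 wells in ISX-9, 59.3% of the Sct-high ones, and 7 wells in DMSO, 7 of its 10 Sct-high ones.

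At the top of the range the genes did not part from Cck. By a level of 10000 CPM, chosen after the values were seen, 10 ISX-9 wells and 13 DMSO wells held at least 1 of the 5 genes, and in all of them Cck was at 10000 CPM or more. Every well at that level of Gcg, 3 in ISX-9 and 5 in DMSO, was among them. Cck was also the gene most often high alone, in 64 of its 83 ISX-9 wells, with a median of 1390 CPM, and in 42 of its 58 DMSO wells, with a median of 1809 CPM. Cck-high wells with another high hormone gene had medians of 5194 CPM in ISX-9 and 20809 CPM in DMSO. Nts was high alone in no well of either plate and Pyy in 2 ISX-9 wells and no DMSO well.

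**Figure D3:**
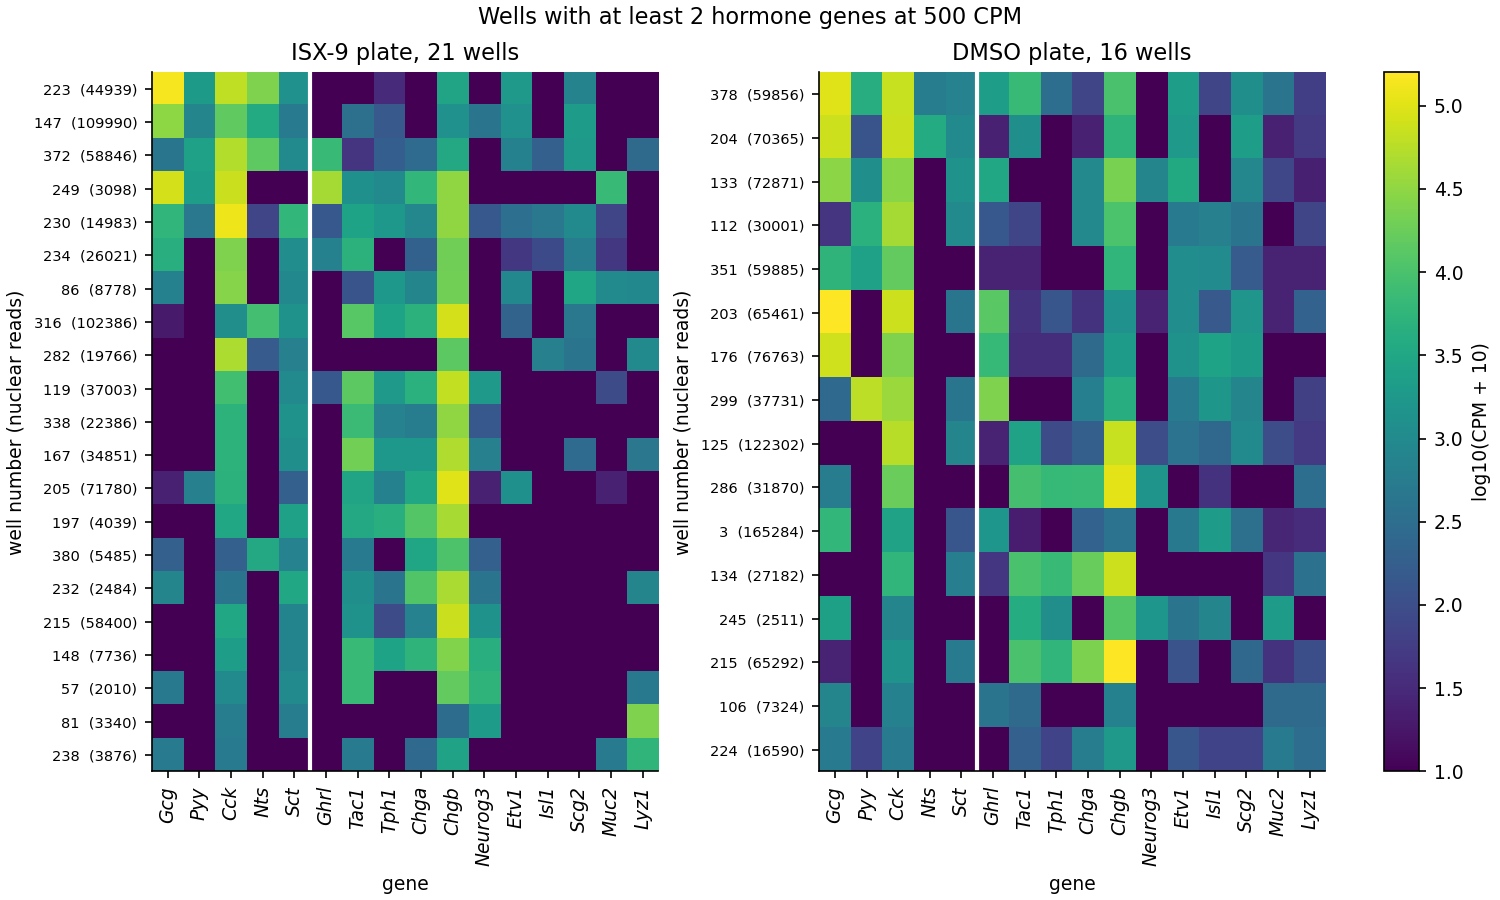
Each row is a well with at least 2 of the 5 hormone genes at 500 CPM or more (21 in ISX-9, left, and 16 in DMSO, right), labelled with its well number and nuclear reads, and colours give log10(CPM + 10) of the hormone genes left of the white line and of other genes right of it. Most rows at the top are bright for Gcg or Cck and hold Scg2, though well 249 of ISX-9 does not. Many lower rows of ISX-9 hold Cck and Sct with Tac1 and Chgb, while lower rows of DMSO hold Cck with Gcg or Sct.

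Granule genes were high in multihormonal wells, and also in wells with 1 high hormone gene. Chga or Chgb, the chromogranin genes of secretory granules, reached 500 CPM in 20 of 21 ISX-9 wells and in 15 of 16 DMSO wells. All 9 genes of the list of processing and granule genes that averaged 10 CPM or more were at least 2-fold higher in multihormonal wells than in wells with none of the 5 genes, in both plates, where 8.52% of the 9106 genes were at least 2-fold higher in ISX-9 and 9.51% in DMSO. Chgb stood at 43087 CPM in multihormonal wells, 29309 CPM in wells with 1 high hormone gene and 4640 CPM in wells with none in ISX-9, and at 30868, 38638 and 5110 CPM in DMSO. The list summed to 47978, 30725 and 4946 CPM in ISX-9 and to 35746, 40806 and 5478 CPM in DMSO. Scg2, a granin, stood at 750.5 CPM in multihormonal wells and 0.115 CPM in wells without a high hormone gene in ISX-9, and at 872.4 and 2.90 CPM in DMSO. Cpe, the carboxypeptidase that trims prohormone fragments, stood at 2091 and 177.1 CPM in ISX-9 and at 1626 and 115.6 CPM in DMSO. Pcsk1, the convertase that cuts gut prohormones, stood at 383.1 and 56.9 CPM in ISX-9 and at 433.5 and 76.7 CPM in DMSO. Pcsk2, the convertase of pancreatic alpha cells, had no read in a multihormonal well of either plate. It had only 3 reads over all kept wells of ISX-9 and 1 over those of DMSO, too few to set these wells apart.

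Summed markers of goblet, Paneth, tuft and cycling cells were lower in multihormonal wells than in wells without a high hormone gene. They were also lower in wells with 1 high hormone gene. There the goblet sum was 1895 CPM in ISX-9 and 1511 CPM in DMSO, and the Paneth sum 1539 and 2878 CPM. The summed level of the 7 goblet markers was 1523 CPM in multihormonal wells and 4869 CPM in wells without a high hormone gene in ISX-9, and 1096 and 11216 CPM in DMSO, although Agr2 alone was higher in ISX-9, at 429.8 and 281.7 CPM. That of the 5 Paneth markers was 1447 and 3107 CPM in ISX-9 and 1501 and 13755 CPM in DMSO. The 4 tuft markers, 0 of which had a read in a multihormonal well of either plate, summed to 126.0 and 59.1 CPM in wells without a high hormone gene in ISX-9 and DMSO. The 4 cycling markers were lower too, at 12.5 and 363.4 CPM in ISX-9 and 70.2 and 340.8 CPM in DMSO. The 5 enterocyte markers summed to 1268 and 352.0 CPM in ISX-9 and 717.7 and 249.9 CPM in DMSO, and most of this was Sis, the sucrase-isomaltase gene, with 1074 and 270.0 CPM in ISX-9 and 637.6 and 166.0 CPM in DMSO. Sis was also high in wells with 1 high hormone gene, at 884.4 CPM in ISX-9 and 483.1 CPM in DMSO. Alpi and Fabp1 had no read in multihormonal wells of either plate, and Anpep stood at 154.2 and 62.1 CPM in ISX-9 and at 63.6 and 76.9 CPM in DMSO. Over all kept wells Alpi had 117 reads in ISX-9 and 0 in DMSO, and Fabp1 had 4 and 1. The part of these markers in the result was not tested. The 3 stem cell markers summed to 52.9 and 238.5 CPM in ISX-9 and 56.0 and 418.3 CPM in DMSO. The 6 enteroendocrine markers summed to 48843 CPM in multihormonal wells, 40398.5 CPM in wells with 1 high hormone gene and 7811 CPM in wells with none in ISX-9. In DMSO they summed to 36986, 48924 and 6843 CPM, and most of this was Chgb in both plates. Neurog3 alone of them was lower in multihormonal wells than in wells with none. In the same order of wells it stood at 436.0, 6247 and 2258 CPM in ISX-9, and at 135.0, 468.6 and 750.9 CPM in DMSO. The 4 enterochromaffin markers summed to 2136 and 848.9 CPM in ISX-9 and 2411 and 854.5 CPM in DMSO. In single wells Muc2 reached 500 CPM in 3 of 21 ISX-9 and 2 of 16 DMSO multihormonal wells, and Lyz1, the Paneth cell lysozyme, in 5 and 0. At least 2-fold lower in multihormonal wells were 23.6% of the 9106 genes in ISX-9 and 21.9% in DMSO.

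Of 10 listed transcription factor genes of peptide-producing endocrine cells at 10 CPM or more, 6 were at least 2-fold higher in multihormonal wells in ISX-9, against 8.52% of all 9106 genes, and 8 in DMSO, against 9.51%. Insm1 was lower in ISX-9, at 211.8 CPM in multihormonal wells and 363.3 CPM in wells without a high hormone gene, and stood at 219.5 and 129.4 CPM in DMSO. Etv1 stood at 619.7 CPM in multihormonal wells and 34.9 CPM in wells without a high hormone gene in ISX-9, and at 1026 and 17.3 CPM in DMSO. Isl1, a LIM homeodomain factor gene, stood at 51.4 and 6.21 CPM in ISX-9 and at 812.0 and 52.7 CPM in DMSO, and it reached 500 CPM in 1 of 21 and 6 of 16 multihormonal wells. Onecut3 stood at 613.5 and 29.7 CPM in ISX-9 and at 174.5 and 10.9 CPM in DMSO. Between the plates themselves, Insm1 (404.1 CPM in ISX-9 and 150.5 CPM in DMSO) and Onecut3 (75.1 and 24.7 CPM) were at least 2-fold higher and Isl1 (7.46 and 128.2 CPM) at least 2-fold lower among these 10 factors. Of the other gut hormone list, 0 of 3 genes at 10 CPM were 2-fold higher and 2 were lower, Ghrl (67.5 and 629.2 CPM) and Gip (0 and 103.7 CPM). The enterochromaffin list had 0 of 9 higher and 2 lower, Reg4 and Afp, and the processing and granule list 0 of 9 higher and 1 lower, Scgn, where 4.51% of the 9106 genes were at least 2-fold higher and 1.19% lower.

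In multihormonal wells 6 of 9 enterochromaffin genes were at least 2-fold higher than in wells without a high hormone gene in ISX-9, against 8.52% of the 9106 genes, and 7 of 9 in DMSO, against 9.51%. Wells with 1 high hormone gene stood higher still, with list sums of 7185 CPM in multihormonal wells, 8125 CPM in wells with 1 and 1999 CPM in wells with none in ISX-9, and 8565, 21324 and 2793 CPM in DMSO. Tph1 stood at 910.9, 1309 and 219.7 CPM in ISX-9 and at 889.9, 2627 and 420.3 CPM in DMSO. Tph1 reached 500 CPM in 42 of 83 Cck-high wells in ISX-9 and 24 of 58 in DMSO, in 11 of 27 and 4 of 10 Sct-high wells, in 3 of 9 and 2 of 17 Gcg-high wells, in 3 of 7 and 0 of 5 Pyy-high wells, and in 1 of 5 and 0 of 2 Nts-high wells. Tac1, the gene of substance P, was at 500 CPM in 47 of 83 Cck-high wells in ISX-9 and 32 of 58 in DMSO. Neurog3 was at that level in 39 of 83 Cck-high wells in ISX-9 and 11 of 58 in DMSO, but in 1 of 9 and 5 of 17 Gcg-high wells and in no Nts-high well of either plate. Among 120 ISX-9 and 56 DMSO wells at 500 CPM or more of Neurog3, Cck stood at 632.8 and 1372 CPM, and 2065 of the 3637 DMSO reads came from a single well. Ghrl, the ghrelin gene, reached 500 CPM in 3 of 21 ISX-9 and 6 of 16 DMSO multihormonal wells, at up to 42931 CPM in well 249 of ISX-9 and 24277 CPM in well 299 of DMSO. Gip, the incretin gene of K cells, had 8166 and 5454 CPM in wells 112 and 125 of DMSO and no read in ISX-9.

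Each gene was also set against wells chosen as likely to lack it. Wells at 500 CPM or more of Muc2 with no read at all of Chga, Chgb, Neurod1 or Neurog3 numbered 1 in each plate, since Chgb was read in 97.8% of all 590 kept wells, so the class was widened, after the data were seen, to Muc2 wells with Chga and Chgb below 500 CPM. These goblet-type wells numbered 43 in ISX-9, with a median of 20027 reads, and 80 in DMSO, with a median of 42332.5 reads. Gcg was read in 10 of 43 in ISX-9, 23.3%, and in 54 of 80 in DMSO, 67.5%, against 27.0% of 174 endocrine wells, those with Chga or Chgb at 500 CPM, in ISX-9 and 51.7% of 151 in DMSO, whose median depths were 16009.5 and 12581 reads. At full depth the share of endocrine wells with a Gcg read was therefore near or below that of goblet-type wells. The widened class does not exclude Neurog3 or Neurod1 reads. It held 2 DMSO wells at 500 CPM or more of Cck and 1 such ISX-9 well for Sct. How much of its hormone reads was background was not tested. The levels differed, since Gcg stood at 6.01 CPM in goblet-type and 1866 CPM in endocrine wells of ISX-9, and at 24.9 and 5273 CPM in DMSO.

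In these goblet-type wells the 5 genes did not keep the ratio they had in the plate. Relative to the level over all kept wells, Gcg was at 0.687% in ISX-9 and 1.13% in DMSO, Cck at 1.33% and 1.98%, Pyy at 0 and 3.15%, and Nts at 0 and 2.33%. The DMSO value of Nts rested on only 2 reads in 1 of 80 wells. Sct stood at 79.1% and 66.2% of its plate level, at 86.3 CPM in ISX-9 and 35.4 CPM in DMSO, with a read in 24 of 43 and 34 of 80 wells. Of the Sct reads of the plate, 38.5% in ISX-9 and 47.8% in DMSO lay in wells under 500 CPM, but only 1.53% and 1.08% of those of Gcg, 3.79% and 2.00% of those of Cck, 4.48% and 2.84% of those of Pyy and 0.670% and 0.990% of those of Nts. Where the Sct reads of goblet-type wells came from was not tested.

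At equal depth, Cck was read more often in all 3 endocrine classes than in goblet-type wells. After thinning to 2000 reads, Cck was read in 51.7% of endocrine, 43.3% of Neurog3, 58.0% of Tph1 and 4.65% of goblet-type wells in ISX-9, and in 47.0%, 32.1%, 52.8% and 11.2% in DMSO. Gcg was read in 10.3% of endocrine and none of the 43 goblet-type wells in ISX-9, where the exact interval reaches 8.22%, and in 20.5% and 10% in DMSO. Sct was read in 19.5% and 13.95% in ISX-9 and in 11.9% and 5.00% in DMSO. Pyy and Nts were each left in at most 6.62% of the endocrine wells of a plate.

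**Figure D4:**
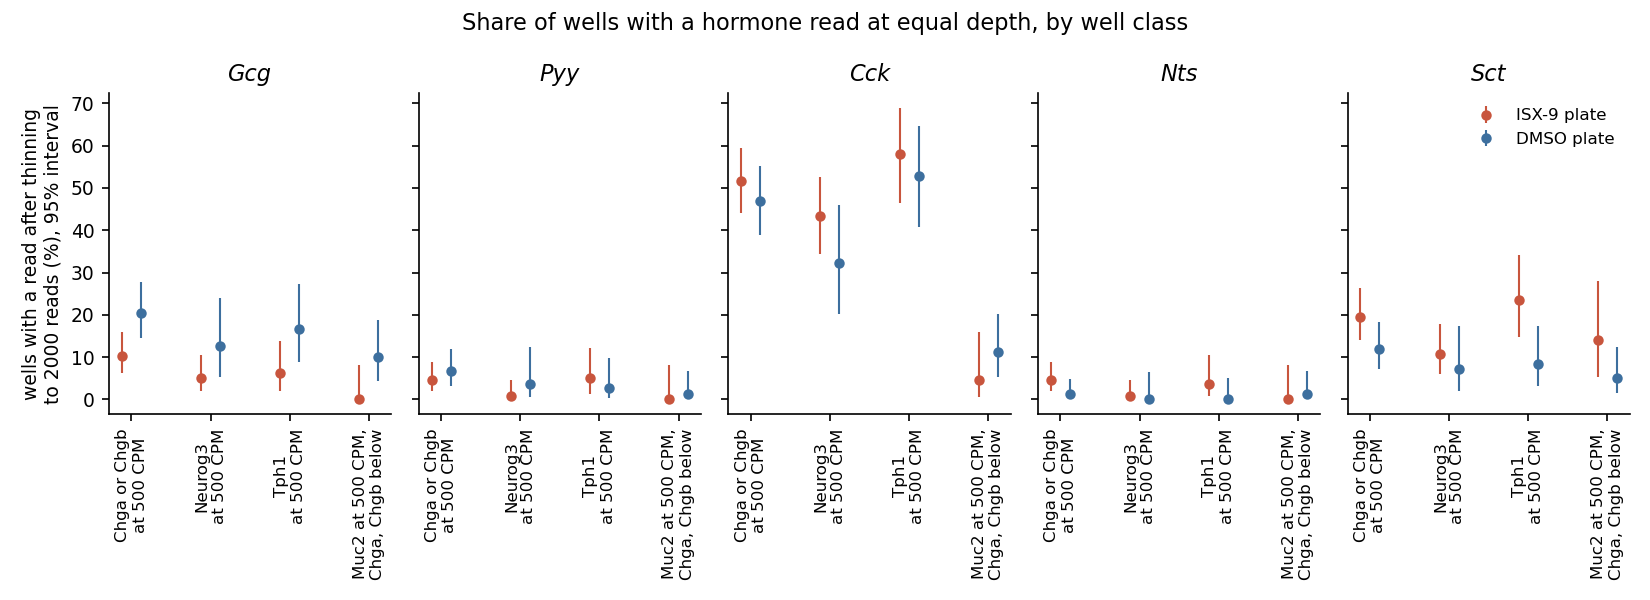
Share of wells with a read of each gene after every well was thinned to 2000 reads, with 95% Clopper-Pearson intervals, in 4 classes of wells that can overlap, for the ISX-9 plate (left point of each pair) and the DMSO plate. Cck lies between 32.1% and 58.0% in the 3 endocrine classes and at 4.65% and 11.2% in Muc2 wells, whereas Nts is at most 4.60% in any class.

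The plates were also compared by well number, since the same barcodes were used in both. The 5 wells with the most Gcg in the ISX-9 plate held 10158 Gcg reads, and the same well numbers held 7 in the DMSO plate. The 5 highest Gcg wells of the DMSO plate held 29439 reads and their numbers held 0 in the ISX-9 plate. For Nts the counts were 3262 and 0 for the highest ISX-9 wells and 303 and 0 for the wells with a read in DMSO. For Cck they were 8976 and 9 for the highest ISX-9 wells, and 22397 and 161 for the highest DMSO wells, of which 114 reads were in well 378 and 47 in well 203. The 114 reads stood for 18092 CPM in well 378 of the ISX-9 plate, so that number was Cck-high in both plates, whereas none of the 5 highest Gcg, Pyy or Nts wells of either plate had more than 2 reads of that gene at its number in the other. Next to well 223 of ISX-9, with 6269 Gcg reads, wells 222 and 224 had 2 and 11. The DMSO wells 203 and 204 are neighbours by number, with 10075 and 5421 Gcg reads and 4884 and 5061 Cck reads. They had 27 and 69 Sct reads, 0 and 8 Pyy reads and 0 and 265 Nts reads. Whether reads passed between neighbouring wells was not tested.

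Likeness to each member was measured by the Pearson correlation of log2(CPM + 10) over the 590 kept wells after each plate mean was taken off, among 8637 genes read in at least 10% of wells, with the members, ribosomal protein genes and unnamed gene models left out. These coefficients describe wells that share a plate and its depth, and they were low. Gcg was most like Rbp4 (0.33), which encodes the retinol carrier of blood, Ghrl (0.31), Scgn (0.31), which encodes the calcium-binding protein secretagogin, and Etv1 (0.29). The same 4 genes led for Pyy, at 0.40 for Rbp4, 0.33 for Etv1, 0.29 for Scgn and 0.29 for Ghrl. Cck was most like the granule genes Cpe (0.48), Chgb (0.46) and Scg3 (0.44) and the G protein gene Gnao1 (0.44). Nts was most like Onecut3 (0.29), Etv1 (0.29), Scg3 (0.27) and Rnf130 (0.25), values that rest on its few wells. Sct was most like Vgf (0.31), Scg3 (0.30), Ptprn2 (0.30) and Pam (0.29), genes of secretory granules, and Pam encodes the enzyme that amidates peptide hormones. Between members the coefficient was highest for Gcg and Pyy in ISX-9, 0.51, against 0.21 in DMSO, and lowest for Gcg and Sct, 0.16 and 0.15.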

How the data were processed

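Single reporter-positive cells were processed by SORT-seq with CEL-Seq2 chemistry in plates of 384 wells, per the labels' protocols. The authors deposited raw counts of reads per gene and well, not collapsed by molecular barcode. The submitters' processing notes name BWA and the human build hg19, while the gene rows carry mouse symbols, so no coordinates of the files are used. The sources used here give no counting rule. Totals leave out the ERCC spike-in rows and the mitochondrial rows, which took 5.49% and 24.7% of reads in the ISX-9 plate and 4.27% and 26.0% in the DMSO plate.

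Wells with at least 2000 nuclear reads and 500 genes were kept, doublets were not called, and a gene absent from a table was set to 0. Ratios are log2 of (CPM + 5). This pseudocount makes the fold of a low gene too small. Cells of a plate are not replicates, so no test was made. Thinning used seed 1. The calculation was tested on simulated data. Named genes were the 5 members, 5 lists with 54 genes (7 without a row, not analysed here), 8 marker lists, Neurog3, Muc2, Mki67 and Lyz1, and the 4 genes most like each member. Members and lists were chosen with earlier results of these data known. Python 3.11.15, numpy 2.4.6, pandas 2.3.3 and scipy 1.17.1 were used.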

Additional observations from a re-analysis of the deposited data

Results flagged for a closer look

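Sct stood apart in the wells that the filter left out, which enter the values above only in the alternative with no well filter. The 94 ISX-9 wells under the filter held 23 Sct reads in 10 wells, 207.3 CPM (Poisson interval 131.4 to 311.0), and the 84 DMSO wells held 8 reads in 2 wells, 50.1 CPM (21.6 to 98.7), so the ISX-9 level was above that of the control plate. These wells had medians of 1179.5 and 1201.5 nuclear reads. The other members were not above the DMSO level there beyond counting error, with Gcg at 126.2 and 688.8 CPM, Cck at 324.4 and 1553 CPM, Pyy at 9.01 and 93.9 CPM, and Nts at 45.1 CPM in ISX-9, from 5 reads, and no read in DMSO.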

How the results depend on the processing

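With 1 plate per treatment no replicate could be left out, and no paired analysis was possible because each group is 1 sample, so fewer than 2 pairs exist. The Cck log2 ratio of -0.68 reversed to 0.073 as a mean over wells, 0.081 in thinned wells and 0.16 without multihormonal wells, an alternative added after the data were seen. Other log2 ratios moved beyond the counting interval. As a mean over wells they were -0.78 for Gcg, 3.22 for Nts and 1.44 for Sct. Without the highest well of each plate they were -2.14 for Gcg, -0.92 for Pyy and 4.65 for Nts. Without the deepest 5% of wells they were -1.28 for Gcg and -0.77 for Cck. Without Rn45s they were -1.44 for Gcg and -0.79 for Cck, and with median-of-ratios scaling, a shift of 0.17, -1.50 and -0.85. In thinned wells they were -0.61 for Gcg, 2.82 for Nts and 1.69 for Sct, and with a pseudocount of 1 the Nts value was 3.70. Without multihormonal wells they were -3.04 for Gcg, -0.33 for Pyy and 0.34 for Nts, which by construction leaves out every Nts-high well.

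At 100 CPM the multihormonal wells numbered 60 in ISX-9 and 64 in DMSO, at 1000 CPM 10 and 9, and in thinned wells, where 1 read is 500 CPM, 33 and 36. The shares of wells at 100 CPM were 8.62% for Gcg, 50.3% for Cck and 28.3% for Sct in ISX-9, and 22.7% for Gcg, 5.67% for Pyy, 40% for Cck and 13.3% for Sct in DMSO. At 1000 CPM they were 20.7% for Cck and 3.45% for Sct in ISX-9, and 13.7% and 0.333% in DMSO. In thinned wells they were 7.24% for Gcg, 37.2% for Cck and 15.2% for Sct in ISX-9, and 16.3% for Gcg, 4.00% for Pyy, 30.3% for Cck and 7.67% for Sct in DMSO. The stricter well filter, Rn45s, the deepest wells and the 5-read minimum moved no share beyond its interval and no count of multihormonal wells by over 1.5 times. In the single Muc2 well per plate without endocrine reads, the share with a read went to 0% after thinning for Sct in ISX-9 and for Gcg in DMSO. Without the filter on low genes, 657 genes were at least 2-fold higher in ISX-9 instead of 411. The cause of these changes was not tested.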

Other observations

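Sensors of nutrients and bile acids, from a list of 12 genes of which 9 had a row, were sparse in these wells. The 4 with a mean of at least 10 CPM were Ffar2, Ffar4, Gprc5c and Slc5a1, and 2 of the 4 were at least 2-fold higher in multihormonal wells than in wells without a high hormone gene in each plate, Gprc5c and Slc5a1 in ISX-9, against 8.52% of all 9106 genes, and Ffar2 and Gprc5c in DMSO, against 9.51%. Between the plates 1 of the 4 was at least 2-fold higher in ISX-9, Gprc5c, at 16.4 CPM in ISX-9 and 5.49 CPM in DMSO, where 4.51% of the 9106 genes were. Ffar2, a receptor of short-chain fatty acids, stood at 151.0 CPM in multihormonal wells and 73.4 CPM in wells without a high hormone gene in ISX-9, and at 199.7 and 60.6 CPM in DMSO. It was not highest in multihormonal wells, since wells with 1 high hormone gene had 154.6 CPM in ISX-9 and 264.4 CPM in DMSO. Ffar3, its relative, stood at 49.8 and 0.690 CPM in ISX-9 and at 19.8 and 0.250 CPM in DMSO. Gpr119, a receptor of fat-derived amides, stood at 9.34 CPM in multihormonal wells in ISX-9 and 66.9 CPM in DMSO, with none or 0.415 CPM in wells without a high hormone gene. Slc5a1, the sodium-glucose transporter, stood at 252.3 and 120.8 CPM in ISX-9 and at 178.9 and 97.8 CPM in DMSO.

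Of the other hormone genes at 10 CPM or more, 2 of 3 were at least 2-fold higher in multihormonal wells in ISX-9, against 8.52% of all genes, and 3 of 3 in DMSO, against 9.51%. Tac1, counted in both plates, was higher still in wells with 1 high hormone gene. It stood at 5164 CPM in multihormonal wells and 5464 CPM in those wells in ISX-9, and at 2218 and 5622 CPM in DMSO. Ghrl was highest in multihormonal wells in both plates, and Gip in DMSO. Gal, the galanin gene, was read in the ISX-9 plate alone, at 51.4 CPM in multihormonal wells, with 244.8 CPM in well 223, 127.3 in well 147, 68.0 in well 372 and 39.1 in well 316. These are 4 of the 5 Nts-high wells of that plate. Insl5, a hormone gene of colonic L cells, stood at 184.8 CPM in well 204 of DMSO, the well with the most Nts there, and had no read in the multihormonal wells of ISX-9. Its 7 reads in ISX-9 all lay in wells without a high hormone gene. Iapp stood at 10.9 CPM in multihormonal wells of ISX-9 and 8.78 CPM in those of DMSO. Each value came from a single well, number 167 of ISX-9 with 200.9 CPM and number 133 of DMSO with 109.8 CPM.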
